A study of Mus musculus with 20 samples.

Results

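The nuclear genes for respiratory complexes II, III, IV and V and for cytochrome c were followed in the neocortex of 20 mice. Members were the genes whose array symbol is Sdha, Sdhb, Sdhc, Sdhd, Cyc1 or Cycs, or begins with Uqcr, Cox4i, Cox5, Cox6, Cox7, Cox8 or Atp5. This gave 48 genes of the 18193 genes with a symbol of their own on the array, and each was represented by its brightest probe set. A limit on dim probe sets left 47 genes to test, which were 4 of complex II, 9 of complex III, cytochrome c itself, 16 of complex IV and 17 of complex V. The gene below the limit was Cox7b2, a testis form of a complex IV subunit, with a mean signal of 143 against the limit of 184.

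The mitochondrial respiratory chain passes electrons from NADH and succinate to oxygen and pumps protons across the inner membrane. Complex II is the succinate dehydrogenase of the citric acid cycle, complex III hands electrons to cytochrome c, complex IV reduces oxygen, and complex V, the ATP synthase, uses the proton gradient to make ATP. Most subunits are encoded in the nucleus and imported, while a small set at the catalytic cores comes from mitochondrial DNA. Neurons draw most of their ATP from this chain.

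All mice were singly housed males of the B6/C3H F1 hybrid, with 5 mice in each of 4 groups and 1 array per mouse. Young controls were 5 months old and old controls 30 months old, both on control diet. The other old groups were 30 months old too and received, from 15 months of age, a diet with 1000 mg/kg α-tocopherol, or with 500 mg/kg each of α- and γ-tocopherol (the mixture). The tocopherols are forms of vitamin E, a lipid-soluble antioxidant, and the design asks which messages differ with age and whether the supplements alter them. There was no young group on a supplement, and both supplement groups were set against the same old controls.

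Values were deposited signal intensities scaled so that each array had a trimmed mean of 1000, and differences are of log2(signal + 16), a scale that understates the change of dim genes. The signal of the brightest 1% of probe sets started at 15111 to 15980 in young mice, 16641 to 18433 in old controls, 16271 to 18532 with α-tocopherol and 14593 to 15931 with the mixture. It was highest in α-tocopherol mouse 1 and in old control mice 5 and 3. The β-actin 3′/5′ ratio, a measure of how complete the labelled RNA was, had a mean of 1.52 ± 0.14 in young, 2.04 ± 0.34 in old controls, 1.67 ± 0.39 with α-tocopherol and 1.43 ± 0.14 with the mixture (SD, n = 5). The 18S ribosomal RNA signal was 421 to 794 in young, 1184 to 2068 in old controls, 655 to 2504 with α-tocopherol and 708 to 1138 with the mixture, so that every old control lay above every young and every mixture mouse. The part of these measures in the results was not tested, beyond the fits with the β-actin ratio given below. Because they moved with the groups and most members lie among bright probe sets, each result is given as deposited and after quantile normalization, which gives every array the same distribution of signals. Quantile normalization would also remove a true shared change of the brightest messages, so neither value is taken as the reference.

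As deposited, the respiratory genes stood mostly higher in old than in young neocortex. Of 47 members, 18 rose and 2 fell (adjusted p under 0.05), against 12.4% of all genes tested called higher and 10.4% called lower (22.8% in all). The members called higher made up 38.3% of those tested. The median difference over members was 0.14 on the log2 scale, beside -0.02 over all genes. In 14 members all 5 old mice lay above all 5 young mice, which held for 9.14% of genes. After quantile normalization 5 members rose and 5 fell, against 12% and 9.06% of all genes, and the median was -0.04, beside 0.00 over all genes (-0.00333). The sign of the difference turned between these sets of values for 19 members. Messages are from whole tissue, so a change in the share of a cell type and a change of RNA per cell cannot be told apart.

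**Figure D1:**
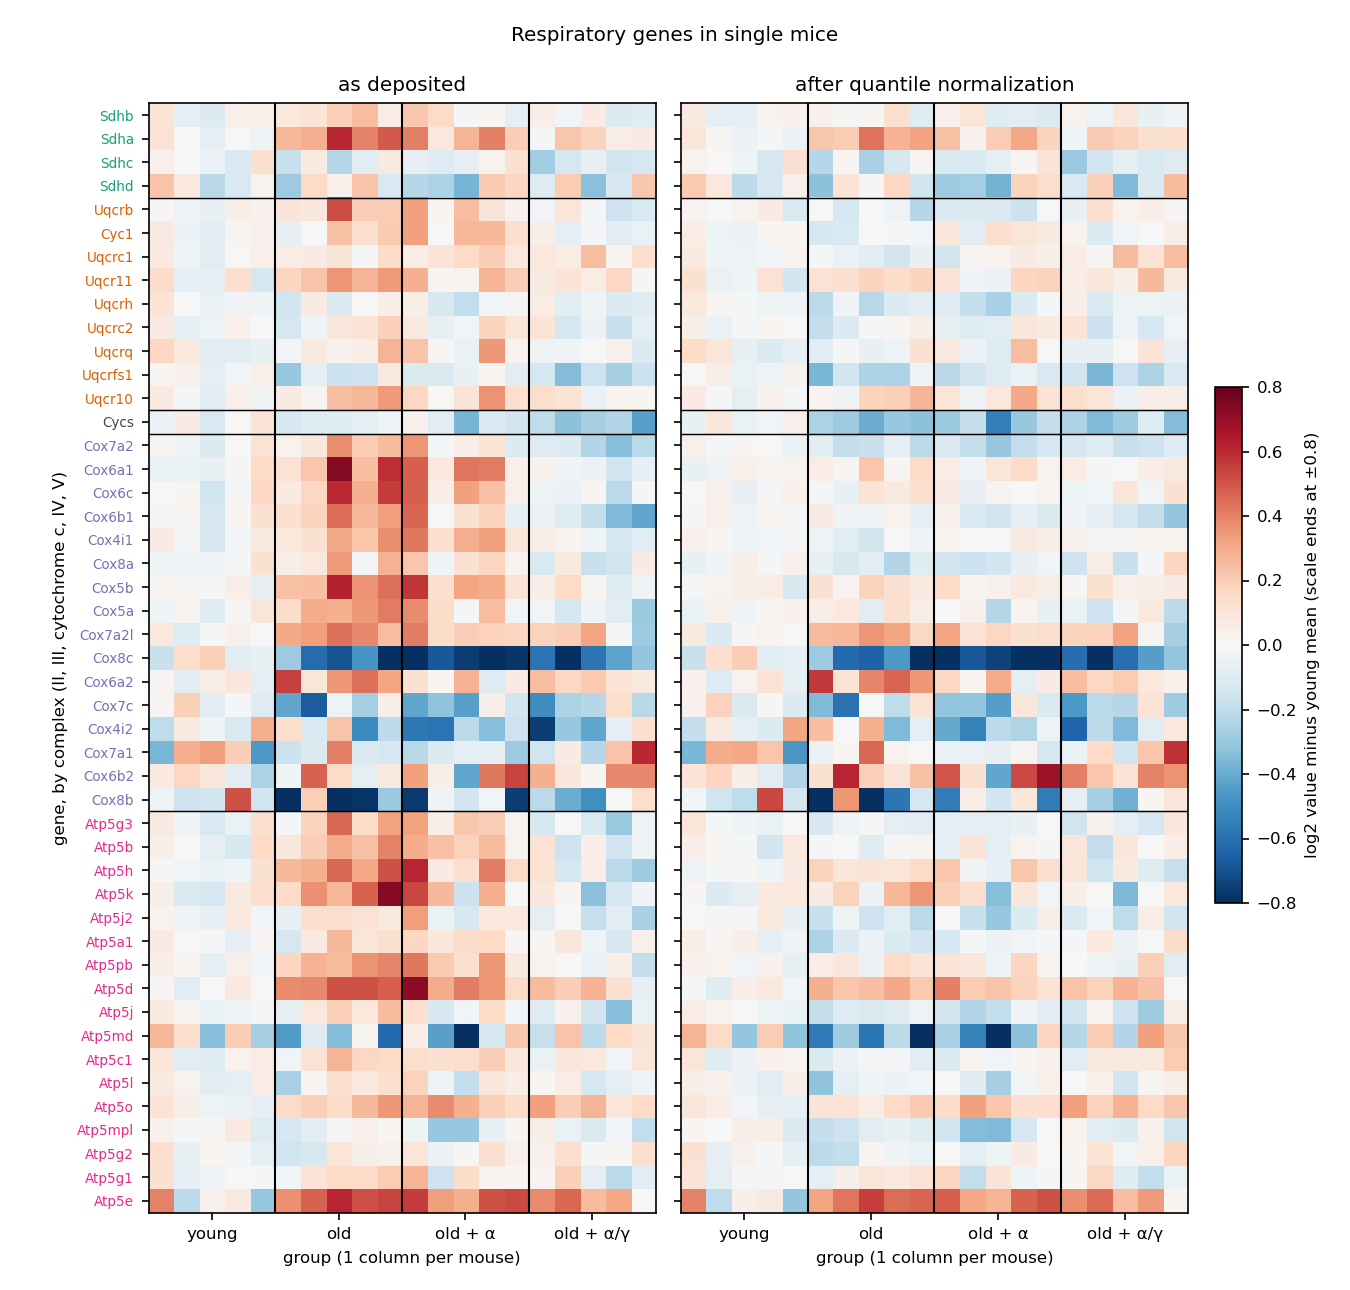
Log2 value of each member gene in each mouse, minus the mean of the young mice, as deposited on the left and after quantile normalization on the right. Rows are genes by complex and by falling mean signal, columns are mice, and colours end at 0.8 in either direction. As deposited, old control mice 3, 4 and 5 and α-tocopherol mice 1 and 4 are the reddest, with a median over members of 0.15 to 0.24; on the right the Sdha, Atp5d, Atp5e and Cox8c rows keep a difference between young and old.

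Only 6 members were called in the same direction with both sets of values, and none was called in opposite directions. Those higher in old mice were Sdha, Cox6a2, Cox7a2l, Atp5d and Atp5e, and the lower one was Cox8c. Over all genes 22.8% were called as deposited and 21.1% after quantile normalization. The share called with both was counted for members only, so the 6 members cannot be set against all genes. All 6 kept their call in each of the 10 fits that left out 1 young or 1 old mouse, with both sets of values. The 14 members called as deposited alone were Uqcr11, Uqcrb, Cox4i1, Cox5a, Cox5b, Cox6a1, Cox6b1, Cox6c, Cox8b, Atp5b, Atp5h, Atp5k, Atp5o and Atp5pb. The 4 called after quantile normalization alone were Cycs, Uqcrfs1, Cox7a2 and Atp5a1, all lower in old mice. Several probe sets were tested for 27 members, and in 17 of them all had the same sign with age as deposited, so a call here is that of the brightest probe set.

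**Figure D2:**
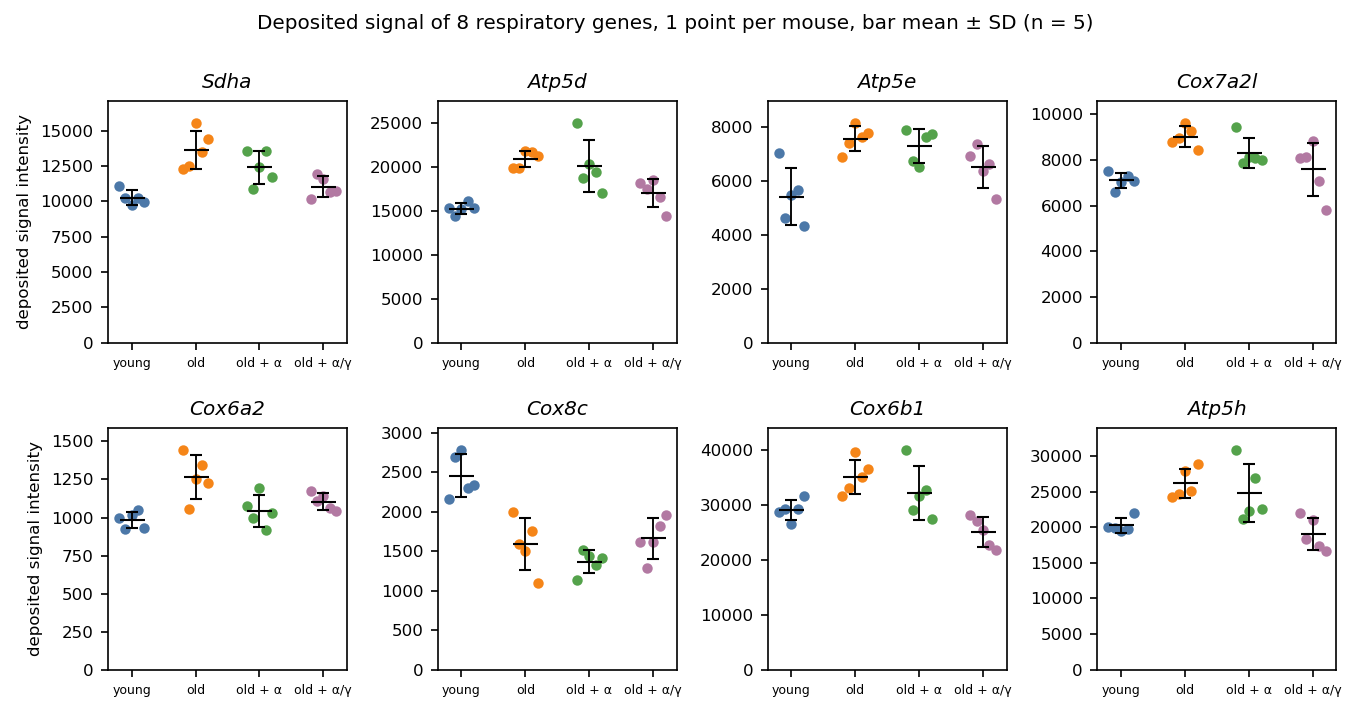
Deposited signal intensity of 8 members in single mice, with the group mean and SD (n = 5). Old control points lie above all young points for Sdha, Atp5d, Cox7a2l, Cox6a2, Cox6b1 and Atp5h and below them for Cox8c, while for Atp5e 1 young mouse reaches into the old range.

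The promoters of nuclear respiratory genes are known for sites of NRF1 and of GABPA (also called NRF2), transcription factors that tie these genes together. Windows from 250 bases before to 50 after the gene start were present in the RefSeq table (GRCm38.p6) for 36 of the 48 members. The letters GCATGCGC, the NRF1 core, occurred on either strand for 8 of these 36 genes (22.2%), beside 3.05% of the 27025 genes with a window. That larger set is every gene with a window and not only the 13351 genes tested here, so the shares compare unlike sets. CCGGAAG, a GABPA core, occurred in 13 (36.1%), beside 9.93%. AAGATGGC, a YY1 core, was in 3 (8.33%, beside 3.19%), and TCAAGGTCA, bound by oestrogen-related receptors, in 2 (5.56%, beside 0.466%). At least 1 of the NRF1 and GABPA cores was found for 16 of the member genes and both for 5. These are matches of letters, not measured binding.

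Stretches of 4 promoters are shown, with these letters in capitals, written 5′ to 3′ on the strand of the gene. The 4 were picked among members called higher with age as deposited, so their rise was set by the choice. The GABPA letters are shown in Atp5e and Uqcr11, the palindrome GCGCATGCGC, which holds the NRF1 core once on each strand, in Atp5k, and both kinds in Cox6a1. The stretches show only cores wholly before the gene start. Uqcr11 also had an NRF1 core and Atp5k a GABPA core outside the stretch shown. All 4 genes lie on the minus strand, at chr2:174464167-174464233, chr10:80406851-80406917, chr5:108434410-108434479 and chr5:115348959-115349150 in that order.
Atp5e: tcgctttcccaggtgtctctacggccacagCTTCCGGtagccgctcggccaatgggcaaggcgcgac
Uqcr11: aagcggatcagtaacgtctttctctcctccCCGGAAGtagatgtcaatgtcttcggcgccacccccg
Atp5k: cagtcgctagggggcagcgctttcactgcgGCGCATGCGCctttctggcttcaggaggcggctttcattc
Cox6a1: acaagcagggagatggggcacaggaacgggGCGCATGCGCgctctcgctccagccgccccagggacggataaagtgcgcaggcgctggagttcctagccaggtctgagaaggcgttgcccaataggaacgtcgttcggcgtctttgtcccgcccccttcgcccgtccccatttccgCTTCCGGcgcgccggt
Of these 4 genes, Atp5e was higher in old mice with both sets of values, and Uqcr11, Atp5k and Cox6a1 as deposited alone. Atp5h and Cox6b1, which also have an NRF1 or GABPA core, were called higher as deposited too. The other members with such a core, Atp5g2, Atp5j, Atp5l, Atp5md, Cox8a, Cycs, Sdhb, Sdhd, Uqcrc1 and Uqcrh, were not called as deposited. A link between cores and calls was not tested.

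In complex II, 1 of 4 subunits was called with age. Sdha encodes the flavoprotein that oxidises succinate. Its signal was 11089.5, 10219, 9754, 10261 and 9953 in young and 12316, 12526, 15547, 13482 and 14372 in old controls, each in the order of mice 1 to 5, as in all such lists below. Every old value lay above every young one. The difference was 0.41 (SE 0.07, adjusted p = 0.000574) as deposited, a rise of 1.33-fold, and 0.29 (SE 0.06, adjusted p = 0.00154) after quantile normalization. A second Sdha probe set of nearly the same mean signal, 11301 against 11733, differed by 0.07 as deposited and -0.03 after quantile normalization, so the rise was seen by 1 of the 2 tested probe sets.

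The iron-sulfur subunit Sdhb had 13097, 11497, 11243, 12500.0 and 12527 in young and 12887, 13120.2, 13883, 14449 and 12666.5 in old mice. These ranges overlapped, and the difference of 0.14 (SE 0.06, adjusted p = 0.12) was not called. The membrane anchor Sdhc had 6758, 6568, 6369, 6050.1 and 7188 in young and 5800.1, 6886, 5607, 6180.1 and 6902 in old mice, with a difference of -0.07 (SE 0.07, adjusted p = 0.468) and overlapping groups. The other anchor, Sdhd, differed by 0.00, with a 95% interval from -0.26 to 0.26. A second, dimmer Sdhd probe set, with a mean signal of 1313, was at -0.63 as deposited (adjusted p = 0.0254 over all probe sets in limma). After quantile normalization it was at -0.61. The mean over the Sdhd probe sets was called lower as deposited, so the result for Sdhd depends on the probe set.

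In complex III, 2 of 9 subunits rose as deposited and none after quantile normalization, when 1 fell. Uqcr11, a small subunit at the complex's edge, had 12322, 10591, 10631, 12134 and 10096 in young and 12507, 13004, 14180.0, 13406 and 14057 in old mice. The old mice all lay above the young, and the difference was 0.27 (SE 0.07, adjusted p = 0.00665) as deposited and 0.15 (SE 0.06, adjusted p = 0.0775) after quantile normalization. Uqcrb, which helps hold the ubiquinone site, had 31210.4, 30115, 29763, 32043 and 31731 in young and 33192, 32995, 44444.5, 35512 and 35594 in old mice. Here too the groups were apart, with old mouse 3 far above the rest, and the difference was 0.22 (SE 0.08, adjusted p = 0.0374) as deposited and -0.08 (SE 0.05, adjusted p = 0.24) after quantile normalization. Without old mouse 3 it was 0.15, and 7 of the 10 fits without 1 mouse, this one included, lost the call. A second Uqcrb probe set went the other way, at -0.32 as deposited and -0.37 after quantile normalization (adjusted p = 0.0198 over all probe sets as deposited), so the probe sets of this gene disagree in direction.

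Uqcr10, another small subunit, had 7113, 6699, 6345.5, 6937.5 and 6607 in young and 7053, 6829, 7973, 8093 and 8546 in old mice. The groups overlapped, and the difference of 0.19 (SE 0.07, adjusted p = 0.0578) missed the threshold. Uqcrfs1, the Rieske iron-sulfur protein that passes electrons toward cytochrome c1, was -0.13 (SE 0.06, adjusted p = 0.136) as deposited and -0.21 (SE 0.06, adjusted p = 0.0163) after quantile normalization, where it fell. The core proteins Uqcrc1 and Uqcrc2 and cytochrome c1 (Cyc1) differed by 0.07, 0.04 and 0.10 as deposited, and the hinge protein Uqcrh and Uqcrq by -0.03 and 0.08, with none called. A second Uqcrc2 probe set, with a mean signal of 9386 beside 10775, was at 0.33 as deposited (adjusted p = 0.0264 over all probe sets in limma). After quantile normalization it was at 0.24, so the result for Uqcrc2 depends on the probe set.

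Cytochrome c (Cycs), the mobile carrier between complexes III and IV, had 21555, 23339.6, 20499.7, 22277 and 23998 in young and 20402.5, 20861, 20869.8, 21208.5 and 21735 in old controls. As deposited the groups overlapped and the difference was -0.09 (SE 0.07, adjusted p = 0.361). After quantile normalization all old mice lay below all young mice and the gene fell, at -0.32 (SE 0.06, adjusted p = 0.00119). Its 3 other tested probe sets differed by -0.15, -0.14 and -0.35 as deposited and by -0.24, -0.21 and -0.21 after quantile normalization, all below 0. The mean over the Cycs probe sets was called lower as deposited.

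Complex IV had the most calls, with 8 of 16 subunits higher and 2 lower in old mice as deposited. Cox7a2l, a protein that bridges complexes III and IV in supercomplexes, had 7529, 6624, 7023, 7304 and 7079.9 in young and 8774, 8966, 9636, 9292 and 8437 in old mice. The groups did not overlap, and the difference was 0.34 (SE 0.08, adjusted p = 0.00578) as deposited and 0.27 (SE 0.08, adjusted p = 0.0167) after quantile normalization. Its other tested probe sets differed by 0.29 and 0.10 as deposited, in the same direction. With the β-actin 3′/5′ ratio as a term of the fit the difference was 0.19 and not called.

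Cox5b, which binds zinc on the matrix side, had 22382, 22320.2, 22012, 23059 and 21179 in young and 26084, 26203, 33939, 28416 and 30136 in old mice. The old mice all lay above the young, and the difference of 0.38 (SE 0.08, adjusted p = 0.00213) became 0.11 (SE 0.04, adjusted p = 0.0823) after quantile normalization. Its other tested probe sets were at 0.45, 0.42, 0.23 and -0.33 as deposited. After quantile normalization they were at 0.19, 0.22, 0.08 and -0.19. The negative one was dim, with a mean signal of 268, and that at 0.45 was nearly as bright as the chosen one. With their brightest probe sets, Cox4i1, Cox5a, Cox6a1, Cox6b1 and Cox6c also lost the call. They were at 0.22, 0.30, 0.38, 0.27 and 0.33 as deposited, all called, and at -0.06, 0.05, 0.09, -0.01 and 0.05 after quantile normalization, none called. Their other probe sets were nearer 0 as deposited, at 0.02 and 0.21 for Cox5a, 0.22 for Cox6a1, 0.07 for Cox6b1 and 0.08 for Cox6c. With the mean over probe sets, Cox5a and Cox6a1 were called higher as deposited, and Cox6b1 and Cox6c were not called. Cox7a2, one of the smallest subunits, was 0.19 (SE 0.08, adjusted p = 0.0803) as deposited and -0.15 (SE 0.04, adjusted p = 0.0112) after quantile normalization, where all old mice lay below all young ones.

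Several complex IV subunits come in forms that are known from particular tissues and are compared here within each family. Of the Cox6a pair, Cox6a2, the form of heart and skeletal muscle, had 998, 927, 1018, 1050.0 and 933 in young and 1447, 1056, 1254, 1342 and 1227 in old mice. The groups did not overlap, and Cox6a2 rose by 0.35 (SE 0.09, adjusted p = 0.00618) as deposited and by 0.38 (SE 0.09, adjusted p = 0.00484) after quantile normalization. Its widespread partner Cox6a1 was at 0.38 and 0.09. The other probe set of Cox6a2 was below the limit. A list of 5 muscle genes had 3 tested and 1 of these higher in old mice, and its summed signal was 1559 to 2235 in young and 1792 to 2460 in old mice; its part in the Cox6a2 result was not tested.

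Of the Cox8 forms, Cox8c, known from testis, had 2153, 2691, 2785, 2297.5 and 2337 in young and 1997, 1589, 1504, 1753 and 1101 in old controls. All old mice lay below all young ones. Cox8c fell, with -0.64 (SE 0.13, adjusted p = 0.00145) as deposited and -0.63 (SE 0.13, adjusted p = 0.00163) after quantile normalization, a level 1.56-fold lower in old mice as deposited. A second, dimmer Cox8c probe set differed by -0.04 and 0.04, so the fall was seen by 1 of 2 probe sets, and the mean of both was -0.34 and not called. The muscle form Cox8b lay just inside the limit, with a mean signal of 187, and had 246, 224, 227, 367 and 225 in young and 42.1, 291, 37.5, 140.5 and 203 in old mice. The old values spread from 37.5 to 291 and overlapped the young ones; the difference was -1.09 (SE 0.36, adjusted p = 0.0314) as deposited and -0.94 (SE 0.36, adjusted p = 0.0657) after quantile normalization. The widespread form Cox8a was at 0.15 and -0.12, with neither called.

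The remaining forms, Cox4i2, Cox6b2 and Cox7a1, were dim and differed by -0.09, 0.12 and -0.03 as deposited, with none called. Cox7c was represented by a probe set with a mean signal of 586 and was at -0.27 (95% interval -0.55 to 0.01).

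In the ATP synthase, 7 of 17 subunits rose with age as deposited, and 2 of them, both in the central stalk of the F1 part, kept the call after quantile normalization. Atp5d, the δ subunit, had 15301, 14371.5, 15184, 16092 and 15274 in young and 19803, 19893, 21737, 21689 and 21259.9 in old mice. The groups were far apart, and the difference was 0.45 (SE 0.08, adjusted p = 0.000556) as deposited, a rise of 1.37-fold, and 0.25 (SE 0.06, adjusted p = 0.00304) after quantile normalization. A second Atp5d probe set differed by 0.23 and 0.15. Atp5e, the ε subunit that binds δ, had 7036, 4620.2, 5457, 5641 and 4316 in young and 6889, 7399, 8145, 7620.0 and 7758 in old mice. Young mouse 1 reached above the lowest old mouse, and the difference was 0.50 (SE 0.10, adjusted p = 0.00178) as deposited and 0.44 (SE 0.10, adjusted p = 0.00377) after quantile normalization. The γ subunit of the same stalk, Atp5c1, was at 0.14 and -0.06, with neither called.

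Atp5pb, subunit b of the peripheral stalk, had 17918, 17536.5, 16376, 17774 and 17021 in young and 19473, 20986, 20674.5, 22193 and 22743 in old mice. The old mice lay above the young, and the difference of 0.29 (SE 0.07, adjusted p = 0.00366) became 0.07 (SE 0.05, adjusted p = 0.336) after quantile normalization. A second Atp5pb probe set, with a mean signal of 8366, was at -0.03 and -0.10. Atp5h, subunit d of that stalk, Atp5o, the protein that joins it to F1, and Atp5k, subunit e of the membrane part, were at 0.37, 0.22 and 0.40 as deposited, all called, and at 0.13, 0.13 and 0.16 after quantile normalization, none called. A second Atp5h probe set, with 17380 beside 22249, was at 0.00 (-0.000752) and -0.19, so it did not show the rise. The second, dimmer Atp5o probe set was at 0.01 and 0.00 (0.00074). The mean over the Atp5o probe sets was not called as deposited. The catalytic β subunit Atp5b was at 0.24 (SE 0.07, adjusted p = 0.0168) as deposited and -0.02 after quantile normalization, and its α partner Atp5a1 at 0.08 and -0.14 (SE 0.05, adjusted p = 0.0432). Both other tested Atp5a1 probe sets went up with age, that with a mean signal of 14983 by 0.36 (adjusted p = 0.0019 over all probe sets in limma) as deposited and 0.21 after quantile normalization, and a dim one of 1057 by 1.64 and 1.68. The mean over its probe sets was called higher, so the direction of Atp5a1 depends on the probe set. The genes Atp5g1, Atp5g2 and Atp5g3 all encode the same ring subunit c, and they differed by 0.12, -0.02 and 0.22 as deposited, with none called.

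**Figure D3:**
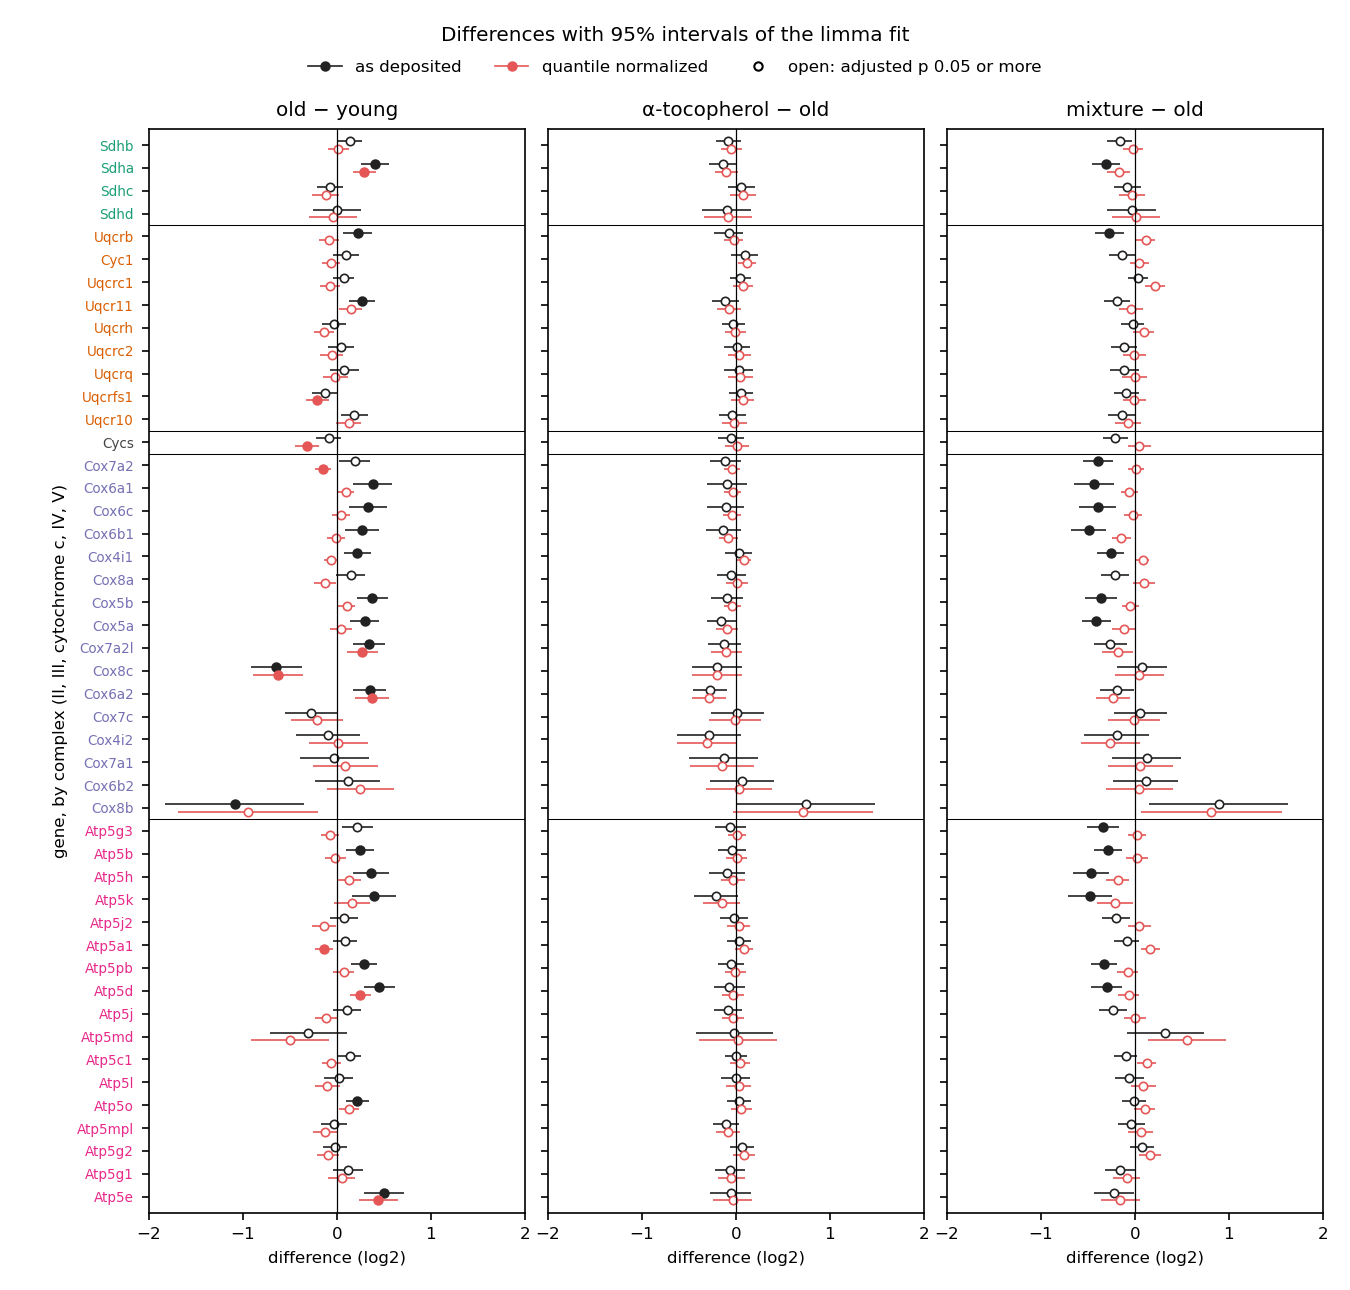
Difference of each member on the log2 scale with its 95% interval from the limma fit, for old minus young, α-tocopherol minus old and mixture minus old; black is as deposited, red after quantile normalization, and filled points passed an adjusted p of 0.05. Most black points of complexes IV and V lie right of 0 in the age panel and left of 0 in the mixture panel, while the red points have medians over members of -0.04 and 0.00300 in these panels; in the α-tocopherol panel no point is filled.

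The size of the age difference went with the brightness of a member's probe set. Among the 21 members with a mean signal over 16000 the median difference was 0.22 as deposited and 12 rose, and among the 222 other genes of that brightness it was 0.25 and 63.5% were higher. For the 19 members between 4000 and 16000 the median was 0.08, beside 0.06 for 2024 other genes. Across the 47 members, difference and log2 signal had a Pearson r of 0.56 and a Spearman rho of 0.49 as deposited, and 0.16 and -0.07 after quantile normalization; all points share the same 10 arrays. After quantile normalization the bright members had a median of -0.06 and the other bright genes 0.01.

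**Figure D4:**
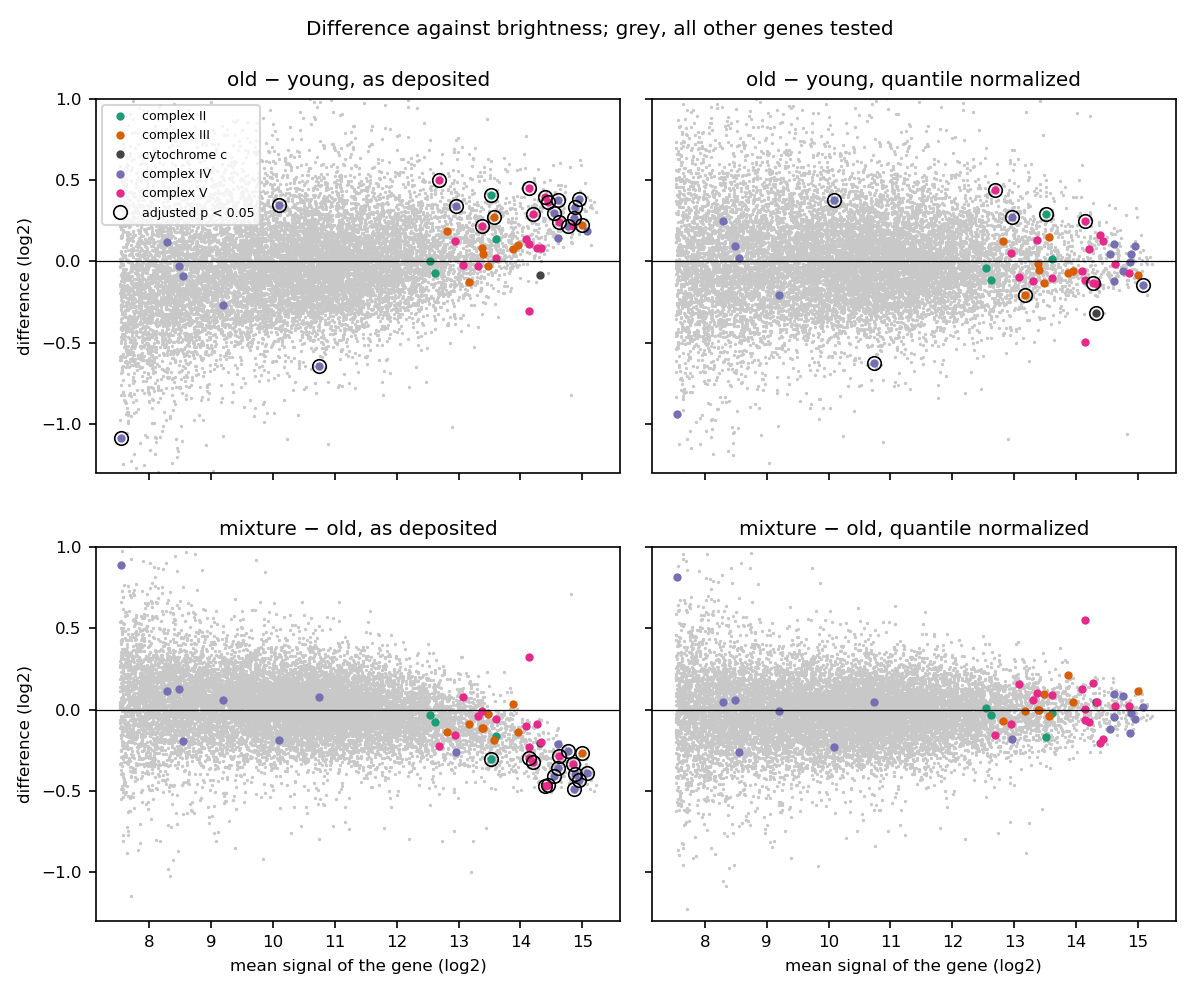
Difference on the log2 scale against the mean signal of each gene, for old minus young (top) and mixture minus old (bottom), as deposited (left) and after quantile normalization (right); members are coloured by complex, other genes are grey, those beyond the axis limits are not drawn, and black rings mark members past the threshold. As deposited, the grey cloud bends upward at the bright end with age and downward with the mixture, and the members follow it, with medians of 0.22 and -0.30 over 16000; after quantile normalization the bend is gone.

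With the β-actin 3′/5′ ratio as a term of the fit, 5 members were called, Sdha, Atp5d, Atp5e and Atp5o higher and Cox8c lower, and over all genes 8.67% were called in place of 22.8%. Without old control mice 3 and 5, 9 members rose, among them all 5 that rose with both sets of values, and Cox8c and Cox7c fell, against 15.4% of all genes called.

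With α-tocopherol alone none of the 47 members was called, as deposited or after quantile normalization, and 0% of all genes were called with either. The limma fit gave 2 members an unadjusted p under 0.05 as deposited, beside 753 of 13351 genes. The lowest was Cox6a2, which had 1074, 996, 1195, 915 and 1031 with α-tocopherol against the old control values above. These ranges overlapped, and the difference was -0.27 (SE 0.09, adjusted p = 0.829). The other was Cox8b, at 0.74 (SE 0.36, adjusted p = 0.857). The median member difference was -0.06 as deposited and -0.01 after quantile normalization, and 95% intervals of single members reached from -0.63 to 1.48, with the widest for the dim Cox8b.

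The mixture went with lower signals of bright respiratory genes as deposited. Of 47 members 15 fell and none rose, against 3.16% of genes called lower and 1.36% called higher (4.52% in all), and the members called made up 31.9% of those tested. They were Sdha, Uqcrb, 7 subunits of complex IV (Cox4i1, Cox5a, Cox5b, Cox6a1, Cox6b1, Cox6c and Cox7a2) and 6 of complex V (Atp5b, Atp5d, Atp5g3, Atp5h, Atp5k and Atp5pb). The median difference was -0.19, beside 0.00 over all genes (0.00112). In 14 members all mixture mice lay below all old controls, which held for 3.7% of genes. After quantile normalization no member was called, against 0.622% of genes, 83 in all. The lowest adjusted p was then that of Uqcrc1, which was above 0 at 0.21 (SE 0.05, adjusted p = 0.0579), and the median was 0.00300. The 18 members whose sign turned include Uqcrb, Cycs, Cox7a2 and Atp5g3.

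In complex IV the largest fall with the mixture was that of Cox6b1, a subunit on the outer side near the cytochrome c site. It had 31542, 32944, 39498, 34936 and 36441 in old controls and 28034, 27093, 25437, 22689.7 and 21744 with the mixture. The groups did not overlap, and the difference was -0.49 (SE 0.09, adjusted p = 0.00768) as deposited, a level 1.41-fold lower, and -0.14 (SE 0.05, adjusted p = 0.124) after quantile normalization. Cox5a, a matrix-side subunit, had 25044, 27827, 27534, 28851 and 30179 in old controls and 22267, 20549, 22251, 21402 and 18461 with the mixture. Again no mixture mouse reached the old controls, and the difference was -0.41 (SE 0.07, adjusted p = 0.00768) as deposited and -0.12 (SE 0.06, adjusted p = 0.299) after quantile normalization. Cox7a2 had 34995, 36399, 44341, 39479.8 and 40762 and 31954, 31791.5, 29137, 27028 and 29443, also apart, and went from -0.39 (SE 0.08, adjusted p = 0.00933) to 0.01 (SE 0.04, adjusted p = 0.897). Second probe sets were nearer 0 as deposited, at -0.28 for Cox6b1, -0.11 and -0.28 for Cox5a and -0.16 for Cox7a2.

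In complex V, Atp5h had 24293, 24671.5, 27867, 25122.5 and 28817 in old controls and 21947, 18310.0, 20958.5, 17429.7 and 16608 with the mixture. The groups were apart, and the difference was -0.46 (SE 0.09, adjusted p = 0.00933) as deposited and -0.18 (SE 0.06, adjusted p = 0.12) after quantile normalization. Atp5pb had 17630.2, 17258, 16747, 17959 and 15191 with the mixture, all below the old controls, and went from -0.32 (SE 0.07, adjusted p = 0.0109) to -0.07 (SE 0.05, adjusted p = 0.516). The second probe sets were at -0.10 and 0.11 for Atp5h and at 0.02 and 0.10 for Atp5pb, so they did not show these falls. Atp5g3 had 28113, 32079.5, 39034, 31376 and 35418 in old controls and 25911, 28429.6, 26011, 23092 and 27491 with the mixture, with an overlap, and went from -0.34 (SE 0.08, adjusted p = 0.0212) to 0.02 (SE 0.05, adjusted p = 0.849). Its call was lost without old mouse 3, at -0.28, without old mouse 5, at -0.31, and without mixture mouse 4, at -0.29. The stalk subunits that were higher with age with both sets of values had -0.30 (SE 0.08, adjusted p = 0.0371) for Atp5d and -0.22 (SE 0.10, adjusted p = 0.244) for Atp5e, and after quantile normalization -0.07 and -0.16, not called.

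In complex II, Sdha had 10130.3, 11955, 11588, 10679.6 and 10716 with the mixture, below every old control, and the difference was -0.31 (SE 0.07, adjusted p = 0.021) as deposited and -0.17 (SE 0.06, adjusted p = 0.137) after quantile normalization. The call was lost without old mouse 3, at -0.26, and without mixture mouse 5, at -0.30. The second Sdha probe set was at -0.03 and 0.09. Sdhb had 12585, 11977, 12742, 11214 and 11364.5 and Sdhc 5425, 5969, 6283, 5941.5 and 6002 with the mixture, both overlapping the old controls, and they were at -0.16 and -0.08, not called.

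In complex III, Uqcrb had 30435.5, 33058, 30626.5, 27603 and 28389.5 with the mixture, with a slight overlap, and was at -0.27 (SE 0.08, adjusted p = 0.0435) as deposited and 0.11 after quantile normalization. The call was lost in 7 of the 10 fits without 1 mouse, which gave -0.31 to -0.20, and the second probe set was at -0.07. Uqcr11 had 11678, 11959, 11573, 12463 and 11169, all below the old controls, and was at -0.19 (SE 0.07, adjusted p = 0.111) and -0.04. Uqcrc2 was at -0.11 and -0.003, not called. Its second probe set was at -0.55 as deposited (adjusted p = 0.0115 over all probe sets in limma) and -0.46 after quantile normalization. The mean over the Uqcrc2 probe sets was called lower as deposited. Cycs had 19357, 17788, 18574, 18985 and 16495 with the mixture, all below the old controls, at -0.21 (SE 0.07, adjusted p = 0.0713), and turned to 0.05 after quantile normalization. The other tested Cycs probe sets were at 0.04, 0.09 and 0.29 as deposited, so they did not show this fall. Cox8c, lower in old controls, was at 0.08 and 0.05 with the mixture.

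The bright members carried the mixture difference as well, as other bright genes did. Over 16000 in signal, 14 of 21 members fell with a median of -0.30, and 64.9% of the 222 other genes fell with a median of -0.30. Difference and log2 signal had a Pearson r of -0.65 and a Spearman rho of -0.73 over members as deposited, and -0.16 and 0.05 after quantile normalization. The number of members called was 7 without old mouse 3, 7 without old mouse 5, 9 without mixture mouse 4 and 8 without mixture mouse 5. Without both old mice 3 and 5, or with the β-actin ratio in the fit, 0 members and 0 of all genes were called.

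Between the mixture and α-tocopherol alone no member was called, nor was any gene (0%). As deposited 21 of 47 members had an unadjusted p under 0.05 in limma, beside 1163 of 13351 genes (8.71%). After quantile normalization the count called was 0 too. The lowest p was that of Cox4i1, which had 34631, 28162, 31531, 32333 and 27545 with α-tocopherol and 26729, 26156.5, 25227, 23563.5 and 24359 with the mixture. All mixture mice lay below all α-tocopherol mice, as in 0.861% of genes. The difference was -0.29 (SE 0.07, adjusted p = 0.133) as deposited and -0.01 (SE 0.04, adjusted p = 0.993) after quantile normalization. The median was -0.14 as deposited and 0.02 after quantile normalization. Without α-tocopherol mouse 5, 3 members were called as deposited.

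The supplemented old mice were also set against the young controls, which these comparisons share with the age comparison. With α-tocopherol 11 members were higher and 1 lower than in young mice, against 11.7% and 10.5% of genes, and after quantile normalization 4 were higher and 4 lower, against 11.5% and 10% of genes. Sdha, Atp5d, Atp5e, Atp5o and, lower, Cox8c were called with both sets of values, and Cycs (-0.30), Cox7a2 (-0.19) and Atp5mpl (-0.20) were lower after quantile normalization alone. With the mixture 1 was higher and 3 lower, against 9.74% and 9.59%, and all 4 kept the call after quantile normalization, when 3 were higher and 5 lower, against 10.4% and 10.6%, with Atp5d and Atp5e added above and Cox6b1 and Cox7a2 below. The higher one was Atp5o, with 10199.8, 9755.5, 9180.4, 9079.8 and 8996 in young mice and 11844, 10835, 11392, 10066 and 10537 with the mixture, at 0.21 (SE 0.06, adjusted p = 0.0177). The groups overlapped at mixture mouse 4. A second, dimmer Atp5o probe set, with a mean signal of 3626, lay below the young mice. It was at -0.26 and -0.27 with the mixture and at -0.15 and -0.16 with α-tocopherol, as deposited and after quantile normalization. The mean over the Atp5o probe sets was called in neither comparison as deposited, so the result for Atp5o depends on the probe set. The lower ones were Cycs at -0.29 (SE 0.07, adjusted p = 0.0039), Uqcrfs1 at -0.22 (SE 0.06, adjusted p = 0.0174) and Cox8c at -0.57 (SE 0.13, adjusted p = 0.00439), and in each all mixture mice lay below all young mice, as in 7.25% of genes. The other tested Cycs probe sets were nearer the young mice, at -0.11, -0.06 and -0.05 as deposited (adjusted p from 0.251 to 0.852 over all probe sets in limma).

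The chosen probe set of Cox8c was called lower than in young mice in all 3 old groups with both sets of values, at -0.64, -0.84 and -0.57 as deposited. Its values were 1129.9, 1516, 1435, 1323 and 1418 with α-tocopherol and 1615, 1286, 1619, 1820.0 and 1959.5 with the mixture, beside 2153 to 2785 in young mice. The second, dimmer probe set was above the young mice with α-tocopherol, at 0.18 and 0.26, and with the mixture, at 0.36 and 0.37, and the mean of both was called in none of the 3 comparisons as deposited. Sdha was at 0.41 and 0.27 in old controls and with α-tocopherol, both called, and at 0.10 (SE 0.07, adjusted p = 0.342) with the mixture. Atp5e was at 0.50, 0.44 and 0.28, and after quantile normalization all 3 were called, at 0.44, 0.41 and 0.29. Atp5d was called in all 3 after quantile normalization, at 0.25, 0.22 and 0.19.

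Other genes of the pathway were read from lists. Of 34 complex I subunits tested, 13 rose and 3 fell with age as deposited (38.2% and 8.82%), against 12.4% and 10.4% of all genes. After quantile normalization 9 rose and 4 fell (26.5% and 11.8%), against 12% and 9.06%. Among those that rose were Ndufb7 (0.70) and the NADH-site subunits Ndufv2 (0.49) and Ndufv1 (0.40), and those that fell are not named here. With the mixture 12 fell as deposited (35.3%, against 3.16% of all genes), and after quantile normalization 1, Ndufb5, rose (0.23). Of 34 assembly factors of complexes II to V, 4 rose and 5 fell with age as deposited (11.8% and 14.7%), close to the 12.4% and 10.4% of all genes. Those called include Pet100 (0.61), which helps build complex IV, and Tmem70 (-0.37), which acts on the c ring of complex V; after quantile normalization 3 rose and 5 fell. With the mixture 2 of these factors rose and 3 fell as deposited, and none was called after quantile normalization.

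Of 15 regulators of respiratory gene transcription, 1 rose and 1 fell with age as deposited (6.67% each), below the 12.4% and 10.4% of all genes. Ppargc1a, the coactivator PGC-1α, rose (0.41, adjusted p = 0.0193) and Gabpa fell (-0.27, adjusted p = 0.0335). Ppargc1a alone kept the call after quantile normalization (0.43). None of the 15 was called with the mixture. Of 22 carriers of ATP and electrons at the inner membrane, 3 rose and 4 fell with age as deposited (13.6% and 18.2%), and 1 rose and 5 fell after quantile normalization. With the mixture 2 fell as deposited, the adenine nucleotide carrier Slc25a4 (-0.40) and the phosphate carrier Slc25a3 (-0.25), and none after quantile normalization. Of the subunits encoded in mitochondrial DNA, 1 was named on the array, ND5, and it is not analysed here.

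Markers of cell types moved too. Of 10 pan-neuronal markers, 6 rose with age and 5 fell with the mixture as deposited, and their summed signal was 154416 to 162899 in young, 164781 to 195136 in old controls, 158092 to 195754 with α-tocopherol and 142385 to 158842 with the mixture. After quantile normalization 2 rose and 1 fell with age and 0 were called with the mixture. Of 8 cortical excitatory markers tested, 2 rose with age and 2 fell with the mixture as deposited. Of 6 inhibitory neuron markers 2 rose with age and 0 were called with the mixture as deposited. Their sums overlapped, with 50666 to 54624 in young and 51952 to 57532 in old controls. Over all genes 12.4% rose with age and 3.16% fell with the mixture as deposited. Of 8 astrocyte markers 7 rose with age as deposited and 6 after quantile normalization, with sums of 52947 to 57260 in young and 78444 to 90868 in old controls. Of 6 oligodendrocyte markers tested 4 rose with age, of 7 microglial markers 4 rose and 1 fell, and of 5 endothelial markers 1 fell. The oligodendrocyte sum was 60024 to 72669 in young, 78604 to 95778 in old controls and 65037 to 77909 with the mixture, where every mouse lay below every old control and 1 marker, Mbp, fell (-0.50); 1 microglial marker, P2ry12, rose (0.50) with the mixture as deposited, and neither was called after quantile normalization. Of 8 meningeal and 7 choroid plexus markers, 2 and 1 rose with the mixture as deposited and none after quantile normalization. The part of these cell types in the respiratory results was not tested.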

How the data were processed

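Messenger RNA of the neocortex of 20 mice, 1 array each, was read from a table of signal intensity that the authors deposited. Per the submitters' processing notes the software was GCOS, with no version; background and summary steps were not given in the sources used here. Every column had a 2% trimmed mean of 1000, which hides a shift of all messages. Signals were taken as log2(signal + 16). Probe sets in the top 60% by mean signal and with 1 symbol were kept, the brightest for each gene, which gave 13351 genes. Many chosen probe sets carry name endings that mark possible cross-hybridisation. Groups were compared with limma 3.58.1 in R 4.3.3 over all 20 arrays (lmFit, eBayes with trend, two-sided), with Benjamini-Hochberg adjustment over all genes and a threshold of 0.05, for 6 comparisons, and again after quantile normalization. The number of arrays limits the precision. The fit was tested on simulated data. Alternatives were other normalizations, pseudocounts, filters and probe set rules, 2-group fits, the β-actin ratio, a replicate block and leaving out mice; 2 were chosen after seeing the data. Members and lists were chosen with earlier results of these data known. Given in full are the 3 members with the smallest p per complex (cytochrome c with complex III) for age and for the mixture; others named outside that rule were chosen after their values were seen. Erythroid genes were listed, and none was tested. Figures used matplotlib 3.10.9.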

Additional observations from a re-analysis of the deposited data

Results flagged for a closer look

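In each group of 5 mice the highest or lowest mouse was set against the nearest other mouse, as a share of the group's range. Of 188 member groups 7 had a mouse that stood apart by Dixon's 95% criterion, and chance gives about 1 group in 20. Uqcrb was 44444.5 in old control mouse 3, next to 35594, and Cox7a1 was 484 in the same mouse, next to 334. In young mouse 5, Atp5h was 22017 and Cox8a was 26341. Cox8b was 367 in young mouse 4. Cox7a2l was 9460.3 in α-tocopherol mouse 1, and Cox6c was 23898 in mixture mouse 4, the lowest of its group.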

How the results depend on the processing

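Of 150 alternative values for the counts and medians over members, 124 were within 1.5 times the count reported, or within 1 SD between mice of the median reported. Among these were 29 members with array medians set equal for age (28 higher), 8 after quantile normalization for α-tocopherol against young (4 higher, 4 lower), and medians of 0.075 for age and 0.0033 for α-tocopherol against old with the β-actin ratio, beside 0.14 and -0.06. For old against young, 20 members as deposited became 10 after quantile normalization, 10 after cyclic loess, 5 with the β-actin ratio in the fit and 11 without old mice 3 and 5, and the median of 0.14 became -0.041 (quantile), 0.020 (loess) and 0.27 (array medians set equal). Setting medians equal moved the median of all genes from -0.02 to 0.11 and the share of calls that were higher from 54.5% to 87.3%. For the mixture against old, 15 became 0 (quantile), 1 (loess, Cox6b1), 0 (β-actin ratio) and 0 (without old mice 3 and 5), and the median of -0.19 became 0.00300, -0.021 (loess), -0.26 (medians equal) and -0.10 (β-actin ratio). For the mixture against α-tocopherol the median of -0.14 became 0.018 (quantile) and -0.018 (loess). For α-tocopherol against young, 12 became 7 (loess) and 21 (medians equal), and the median of 0.12 became -0.015 (quantile), -0.00156 (loess) and 0.23 (medians equal). For the mixture against young, 4 became 8 (quantile), 8 (loess) and 2 (medians equal), and the median of -0.04 became 0.022 (medians equal). The cause of these moves was not tested.

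Leaving out 1 mouse gave 15 to 23 members for age, 7 to 16 for the mixture, 0 to 0 for α-tocopherol against old, 0 to 3 for the mixture against α-tocopherol, 8 to 12 for α-tocopherol against young and 3 to 5 for the mixture against young. After quantile normalization it gave 8 to 11 for age and 0 to 0 for the mixture. Quantile normalization turned the sign of 19 of 47 members with age and of 18 with the mixture. Over the members given in full, all alternatives together turned 9 values. With age these were Sdhc at 0.059 (medians equal) and 0.027 (β-actin ratio), and Uqcrb at -0.082 (quantile) and -0.046 (mean of probe sets). With the mixture they were Uqcrb at 0.11, Cox7a2 at 0.014, Atp5g3 at 0.023 and Cycs at 0.049 after quantile normalization, and Cycs at 0.055 with the mean of probe sets. Over 14 settings Sdha, Atp5d and Atp5e were higher with age in 14, Cox6a2 and Cox7a2l in 13, and Cox8c lower in 13; Cox6b1 was lower with the mixture in 11.

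Nothing in the labels says that mice of equal replicate number share a batch, and the main fit does not pair them. Of 30 same-numbered pairs 5 correlated above 0.1 (r from -0.12 to 0.20), and 9 of 20 mice correlated best with their own number. Whether equal numbers share a batch was not tested. A replicate block gave 20, 0, 15, 0, 12 and 4 members called in the 6 comparisons, the same counts as without it. Dim members such as Cox8b, near the limit of 184, are the least precise.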
